A study of Dicentrarchus labrax with 10 samples.

Results

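In the gonads of estradiol-fed European sea bass (Dicentrarchus labrax), 51 transcripts varied strongly from fish to fish at both early rearing temperatures while their group means stayed close. They were chosen from their own values. Only names that denote contigs, or cDNA clones of 9 libraries, entered, which left 8900 of the 11705 transcript names on the array. Its brightest probe then had to be well above background on all 10 arrays with a mean of at most 6 log2 units, which 6374 met. Finally its standard deviation (SD) had to be 0.9 log2 units or more within each temperature group, and the group means had to differ by less than 0.8 log2 units. Values are log2 processed intensities minus the log2 of the array's own 75th percentile, so that a difference of 1 unit is a doubling. Of the members, 18 were contigs and 33 were clones, 11 of these from clone library 30. The 6374 transcripts held 2856 contigs and 3518 clones, 472 of these from library 30. Members made up 0.80% of the 6374, 0.63% of the contigs and 2.33% of library 30, the largest share of any library.

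Gonad samples of 10 individual fish were profiled at 170 days post hatch (dph), each on its own 1-colour Agilent array, and all fish were labelled as putative females. The 5 HTE2 fish had been brought from 17 °C to 21 °C after 20 dph. The 5 LTE2 fish had been taken down to 15 °C and were raised to 21 °C from 60 dph onward. Both groups ate food with estradiol, a feminizing estrogen, from 90 to 154 dph, so no fish here lacked the hormone. Each temperature was kept in a single tank, and tank and temperature cannot be told apart.

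Sea bass sex depends both on genes and on the water temperature of early life, and warm water is known to masculinize some fish of this species. The juvenile gonad holds germ cells together with supporting, steroid-producing, connective and blood cells, and their proportions change as the organ matures. Each sample is bulk tissue, in which fewer cells of a type and less RNA per cell cannot be told apart. None of the array's names matched a symbol or identifier of the RefSeq gene table, so the members are given by their contig and clone names, without gene names, roles or probe sequences, and the tissue label could not be checked against marker genes.

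Some properties of the arrays bear on every value below. Arrays with the same replicate number lay on the same slide and were scanned together, HTE2 arrays at place 4 and LTE2 arrays at place 3. Place on the slide and temperature therefore cannot be told apart. The 75th percentile of intensity, used here as the brightness of an array, ranged from 632.6 to 1393 in HTE2 and from 243.3 to 684.1 in LTE2. Each fish had 1 array, so a difference between fish and a difference between arrays cannot be told apart.

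Large spread in both groups was rare. An SD of 0.9 or more was found in HTE2 for 601 of the 6374 transcripts and in LTE2 for 295, and 146 passed in both groups. Of these, 95 had group means 0.8 or more apart, 35 of them higher and 60 lower in HTE2, and the remaining 51 (0.80% of the 6374) are the members. The median SD over members was 1.19 in HTE2 and 1.18 in LTE2, against 0.48 in HTE2 and 0.32 in LTE2 over all 6374 transcripts. The members were also dimmer, with a median mean level of -2.67 log2 units against -0.75 over all 6374. Whether the low level adds to the spread was not tested. The highest and the lowest fish of a group differed by a median of 7.50-fold in HTE2 and 7.12-fold in LTE2, and by up to 157.9-fold in HTE2 and 1120-fold in LTE2. The SD was the larger in HTE2 for 25 members and the larger in LTE2 for 26. Just inside the SD threshold lay cDN29P0004K01 with a smaller SD of 0.903 and SeabassC-CL2095Contig1 with 0.904. Just outside lay cDN25P0004H14 with 0.894 and cDN25P0005L17 with 0.889. On the threshold for the group difference, SeabassC-CL1722Contig1 and cDN30P0005E21 lay just inside with HTE2 minus LTE2 of -0.79 each, and cDN25P0005N19 with -0.83 and cDN29P0006B08 with -0.85 lay just outside.

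**Figure D1:**
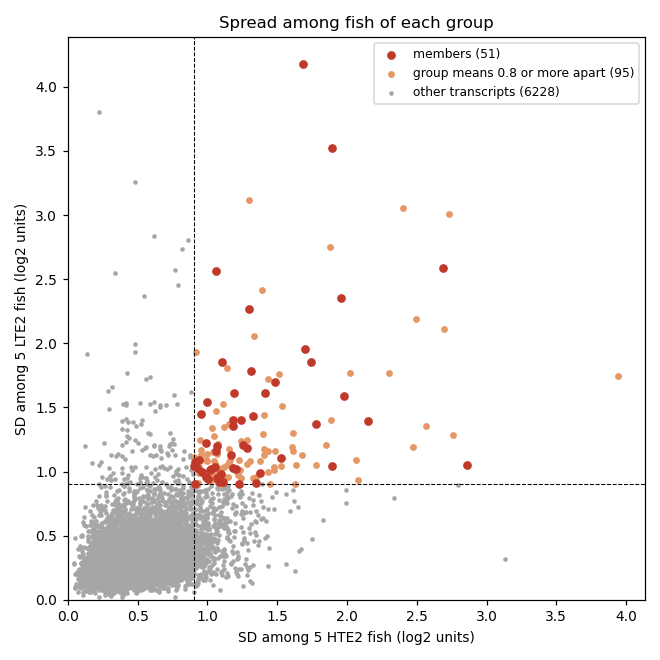
Each point is 1 of 6374 transcripts, placed by its SD among the 5 HTE2 fish (x axis) and among the 5 LTE2 fish (y axis), both in log2 units; dashed lines mark 0.9. The 51 members (red) and the 95 transcripts with group means 0.8 or more apart (orange) lie beyond both lines. The 6228 other transcripts (grey) do not, and some of them lie just short of a line.

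The group means of the members were close because the rule required it. No member was called in the comparison of HTE2 with LTE2 (limma with Benjamini-Hochberg adjustment over 20115 probes, lowest adjusted p of a member 0.271), and 0 had an unadjusted p under 0.05. Among all tested probes, 28% were called, 14.2% as higher and 13.8% as lower in HTE2. The rule used this contrast, so nothing is read from the gap between these shares. With the slide as a replicate block, 3199 of all probes were called instead of 5638, and still 0 members. The mean was lower in HTE2 for 42 members and higher for 9. Of the 42, 30 belonged to a set of 34 members that varied together, described below, so they are not separate events. The median HTE2 minus LTE2 was -0.41 log2 units for the members and -0.29 for all 6374 transcripts.

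The spread among fish can be set beside the error between spots of the same probe, although the rule made it large and spots on an array do not show array or slide error. For the 23 members spotted at least in duplicate, the SD between spots within an array had a median of 0.096 log2 units. The SD among fish exceeded it by a median factor of 16.0, and by more than 5 for 20 of the 23 (87.0%). For the 65 of the 95 transcripts of like spread with repeated spots the median factor was 15.8, and for 3533 transcripts of smaller spread it was 5.95, so the members did not stand apart from transcripts of like spread. The exceptions were cDN31P0003L05, with a factor of 1.51 and an SD of 0.736 between spots, cDN25P0006J19 with 2.86 and cDN26P0002P22 with 2.95. The other 28 members were spotted once and have no such check.

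Separate probes for a transcript usually followed the same fish. For 20 members the array held further probes, 40 in all. Of these, 27 correlated at r = 0.9 or more with the chosen probe over the 10 fish after the group means were taken out, and 29 had an SD of 0.9 or more in both groups. In 13 of the 20 transcripts every further probe reached 0.9. The probes measure the same RNA on the same arrays, so they check the probe and not the fish. The clearest disagreements were cDN25P0006J19, with r = 0.14 and 0.32 at probes well above background on 0 of the 10 arrays, and cDN26P0002P22, with r = 0.20 and 0.19. The authors' deposited table held 48 of the members, and all 48 correlated at 0.9 or more with the values used here. Spread was smaller in the authors' deposited table, with a median SD of 0.605 in HTE2 and 0.798 in LTE2 for the members, against 0.311 in HTE2 and 0.219 in LTE2 for the transcripts the rule could have chosen.

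The members did not vary independently of each other. After each group's mean was subtracted, the first principal component held 53.7% of the variance of the 51 members and the second 11.7%. Members were joined by average linkage on the correlation of these centred values, split at r = 0.5. This grouping was made on the values it describes and is given without a test. One large set of 34 members was joined in a main profile, with a median correlation of 0.75 between pairs and a range from -0.005 to 0.98. A second set had 7 members with a median correlation of 0.61, another had 3 with 0.71, and the remaining 7 members fell into sets of 1 or 2.

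**Figure D2:**
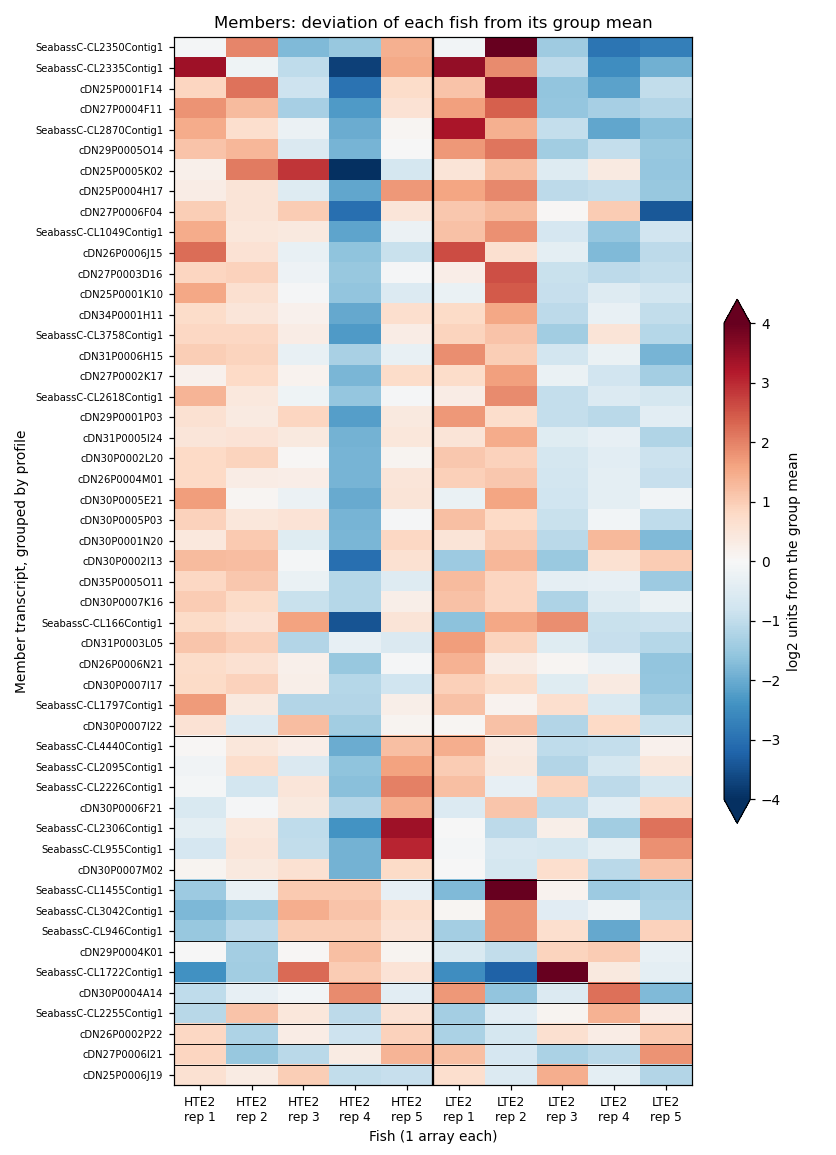
Rows are the 51 members, ordered by profile with thin lines between sets, and columns are the 5 HTE2 and the 5 LTE2 fish; colour is the deviation from the fish's own group mean in log2 units. In the top set of 34 members, HTE2 replicate 4 is below its group mean in all 34 and LTE2 replicate 2 above in all 34, while HTE2 replicates 1 and 2 and LTE2 replicates 1 and 2 are mostly red.

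In the main profile the fish of replicates 1 and 2 were the highest of both groups, with replicate 4 the lowest in HTE2 and replicates 3 to 5 close together at the low end in LTE2. The median over its 34 members was -1.66, -1.97, -3.01, -4.61 and -2.62 log2 units in HTE2 replicates 1 to 5, against -1.42, -0.58, -3.25, -3.21 and -3.51 in LTE2 replicates 1 to 5. HTE2 replicate 4 lay below its group mean for all 34 members and was the lowest HTE2 fish for 32 of them. LTE2 replicate 2 lay above its group mean for all 34 members and was the highest LTE2 fish for 19, with LTE2 replicate 1 the highest for 13. In HTE2, replicate 1 was the highest fish for 17 members of the set and replicate 2 for 11. Over all 6374 transcripts, HTE2 replicate 4 was the lowest HTE2 fish for 46.0% and the highest for 24.7%, and HTE2 replicate 3 was the highest for 43.85%. Their median level was -0.99 log2 units in HTE2 replicate 4 and from -0.78 to -0.66 in the other HTE2 fish. Over the 6323 transcripts that are no members, HTE2 replicate 4 differed from the LTE2 fish by a root mean square of 1.29 to 1.64. For the other HTE2 fish this was 0.57 to 1.11. HTE2 replicate 4 thus stood apart over the wider array too, and fish and array cannot be told apart.

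The profile was not peculiar to the 34. Among the 8327 transcripts of the whole array well above background on every array, 172 that are no members correlated at 0.9 or more with the median profile of the 34, and 34 at -0.9 or less. Those 172 had a median SD among fish of 0.796 log2 units.

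The processed intensities without any scaling between arrays kept most of this order. The median intensity of the 34 members was 246.9, 278.0, 101.3, 57.2 and 103.1 in HTE2 replicates 1 to 5, against 90.7, 406.5, 54.2, 73.7 and 51.6 in LTE2 replicates 1 to 5. HTE2 replicates 1 and 2 and LTE2 replicate 2 were thus high on both scales. LTE2 replicate 1, the dimmest array, was second in its group on both scales but stood much nearer to the low fish without scaling. Without scaling, 30 of the 51 members had an SD of 0.9 or more in both groups. Scaling by the spike-in probes changed the low end of the profile. On that scale the median of the 34 members was -0.86, -1.13, -3.95, -3.35 and -4.04 log2 units in HTE2 replicates 1 to 5, against -3.25, -0.93, -3.94, -4.12 and -4.38 in LTE2 replicates 1 to 5. HTE2 replicates 3 and 5 then lay below HTE2 replicate 4, while HTE2 replicates 1 and 2 and LTE2 replicate 2 stayed the highest of their groups.

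Array brightness moved with the members, on a scale that subtracts it. Each value has the log2 brightness of its array taken off. An unscaled intensity unrelated to brightness therefore gives a negative correlation by construction. HTE2 replicate 4, the low fish of the main profile, was the brightest array at 1393, and LTE2 replicate 1 the dimmest at 243.3. With group means taken out, 44 of the 51 members correlated negatively with log2 brightness over the 10 arrays (median r = -0.43), against 60.7% of 6323 other transcripts (median r = -0.11). As a covariate in limma, brightness was called for 0 of 20115 probes, and for 0 members (lowest adjusted p 0.564 in both). At an unadjusted p under 0.05 it picked 11 members, all with a negative coefficient, where 7.89% of all probes passed, 6.87% with a negative coefficient. LTE2 replicates 2 and 5 had like brightness, 608.5 and 587.8, and differed by 2.93 log2 units in the median of the main profile, -0.58 and -3.51. The part of brightness in these results was not tested beyond these values.

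The slide moved with the members as well. Over the 5 slides, the deviation of the HTE2 fish from its group and that of the LTE2 fish on the same slide correlated positively in 43 of the 51 members (84.3%), with a median r of 0.45. Among the 95 transcripts of like spread but distant means, it was positive in 57.9% (median r = 0.23). Among all 6323 transcripts that are no members, the 95 included, it was positive in 48.4% (median r = -0.02). The root mean square difference over members between an HTE2 and an LTE2 fish averaged 1.47 log2 units for the 5 pairs on the same slide and 1.97 for the 20 pairs on different slides. Over the 6323 transcripts that are no members the averages for the same slide and for different slides were 1.02 and 1.03. A level shared by both arrays of a slide raises the SD in both groups, so the choice of members is not independent of the slide.

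No slide effect passed adjustment on the scale used here. In limma's F test on the slide terms beside group, 0 of 20052 probes and 0 members were called. The lowest adjusted p was 0.122, at the member cDN26P0006J15. At an unadjusted p under 0.05 the test picked 26 members, where 5.33% of all probes passed. That test draws each variance toward the common one, which favours widely spread transcripts. An ordinary F test per transcript picked 15 members (29.4%), against 11.6% of the 95 transcripts of like spread and 4.64% of the 6228 transcripts of smaller spread. Since the rule itself favours levels shared by a slide, these shares are a description and no test of a slide effect in the members. Under spike-in scaling, tried after the data were seen, 178 probes were called for the slide, 6 of them of members.

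**Figure D3:**
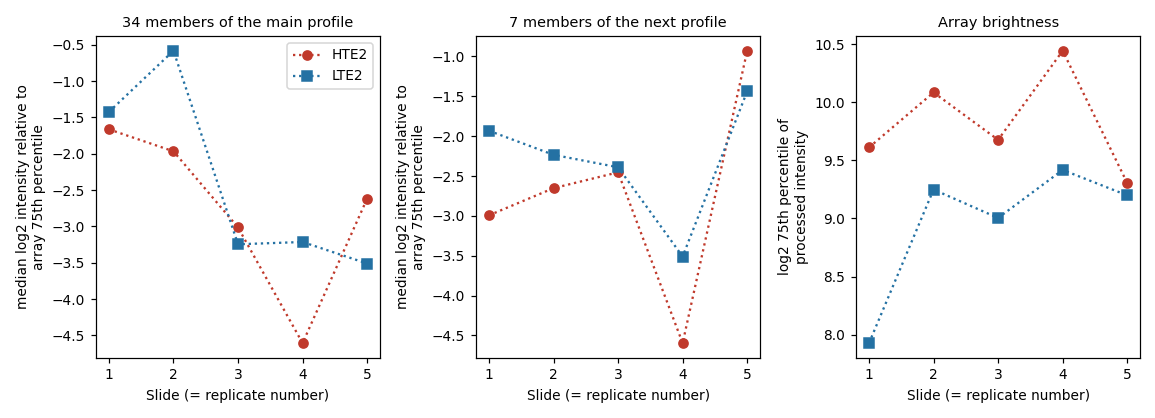
Points are single fish by slide (x axis), HTE2 in red circles and LTE2 in blue squares. The left and middle panels show the median log2 level of the 34 members of the main profile and of the 7 members of the next, relative to the array's 75th percentile; the right panel shows log2 array brightness. In the left panel both groups are highest on slides 1 and 2, and HTE2 replicate 4 is lowest at -4.61; in the middle panel both are highest on slide 5 and lowest on slide 4.

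The member with the closest match between arrays of a slide was cDN26P0006J15. Its level was -0.02, -1.70, -2.57, -3.88 and -3.16 log2 units in HTE2 replicates 1 to 5, against 0.43, -1.55, -2.57, -3.95 and -3.22 in LTE2 replicates 1 to 5. The fish of a slide differed by at most 0.45 log2 units, although each group spanned more than 3 units, and the groups overlapped fully. The SD was 1.49 in HTE2 and 1.70 in LTE2, and its 2 further probes correlated with the chosen one at 0.99 each.

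SeabassC-CL2335Contig1 had the largest spread by the smaller of the group SDs. Its level was 0.59, -2.97, -3.84, -6.54 and -1.30 log2 units in HTE2 replicates 1 to 5 (mean -2.81, SD 2.69), against 0.37, -1.25, -4.18, -5.63 and -5.06 in LTE2 replicates 1 to 5 (mean -3.15, SD 2.59). Replicate 1 was the highest and replicate 4 the lowest fish of both groups. In unscaled intensity it stood at 1176 in HTE2 replicate 1 and at 14.9 in HTE2 replicate 4, against 313.6 in LTE2 replicate 1 and 13.8 in LTE2 replicate 4. Both further probes followed it at r = 1.00, and spots of the chosen probe differed by an SD of only 0.033. With group means taken out, the transcripts most like it, none a member, were cDN30P0006F13 (r = 0.96), cDN26P0004E23 (r = 0.96) and cDN25P0002M06 (r = 0.96). The group means of cDN30P0006F13 and cDN25P0002M06 were far apart, with HTE2 minus LTE2 of -2.22 and -1.47 log2 units. For cDN26P0004E23 the difference was -0.41, with a smaller SD of 0.448 in HTE2 and 0.634 in LTE2.

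The clone cDN25P0001F14 followed the main profile with replicate 2 at its top. Its level was -2.46, -1.15, -4.15, -6.27 and -2.60 in HTE2 replicates 1 to 5 (SD 1.96), against -2.15, 0.29, -4.87, -5.44 and -4.25 in LTE2 replicates 1 to 5 (SD 2.35), with means of -3.32 and -3.28. The transcripts most like it were cDN25P0001P22 (r = 0.97), SeabassC-CL1773Contig1 (r = 0.96) and cDN25P0005K10 (r = 0.96), and all had a smaller spread. The SD of cDN25P0001P22 was 0.257 in HTE2 and 0.302 in LTE2, and that of cDN25P0005K10 was 0.326 in HTE2 and 0.347 in LTE2. The clone cDN27P0004F11 had a like order, with -1.44, -1.97, -4.56, -5.51 and -2.66 in HTE2 replicates 1 to 5 and -1.10, -0.35, -4.27, -4.06 and -3.90 in LTE2 replicates 1 to 5.

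A single fish set the spread of SeabassC-CL2350Contig1 in LTE2. Its level was -2.40, -0.38, -4.11, -3.85 and -0.91 log2 units in HTE2 replicates 1 to 5, against -1.99, 5.31, -3.30, -4.82 and -4.61 in LTE2 replicates 1 to 5. LTE2 replicate 2 stood 7.30 log2 units above the next LTE2 fish and above every HTE2 fish. In unscaled intensity it reached 24190 in LTE2 replicate 2, with 24.0 to 61.5 in the other LTE2 fish, and it lay between 47.5 and 836.7 in the HTE2 fish. Its further probes read 4.56 and 4.55 in that fish. The transcripts nearest to it, looked up after its values were seen, were cDN26P0003L21 (r = 0.98), cDN32P0006I10 (r = 0.98) and cDN24P0001C24 (r = 0.95). Each was highest in LTE2 replicate 2, at -0.56, 2.90 and 0.37 log2 units. With that fish so far from the rest, these correlations rest largely on it.

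SeabassC-CL1722Contig1 lay outside the main profile and was highest in replicate 3 of both groups. Its level was -4.21, -3.19, 0.47, -0.76 and -1.25 in HTE2 replicates 1 to 5 (SD 1.89), against -3.49, -4.22, 4.73, -0.61 and -1.40 in LTE2 replicates 1 to 5 (SD 3.53). LTE2 replicate 3 was 5.34 log2 units above the next LTE2 fish. At its further probes HTE2 minus LTE2 was -1.16 and -0.77, the first beyond the rule's bound of 0.8. These probes correlated at 1.00 each with the chosen probe of SeabassC-CL1722Contig1. Only 3 of the other transcripts detected on every array reached r = 0.95 with it, none a member: cDN28P0001C19 (r = 1.00), cDN32P0002F18 (r = 0.98) and cDN22P0005B14 (r = 0.96). In LTE2 replicate 3 they read 7.42, 6.46 and 5.78 log2 units, and in HTE2 replicate 3, again the highest of its group, 3.30, 2.24 and 1.04. The 3 lie beyond the rule by their library or by group means over 0.8 apart.

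**Figure D4:**
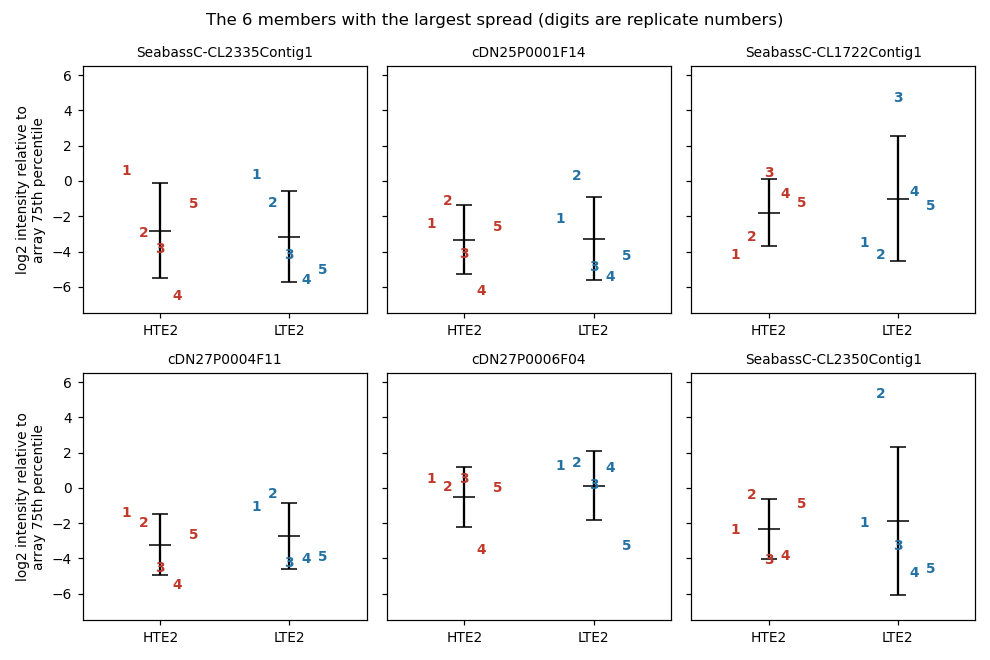
Log2 intensity relative to the array's 75th percentile (y axis) of the 6 members with the largest smaller SD, for HTE2 (left, red) and LTE2 (right, blue); digits are replicate numbers, the bar is the group mean and the whiskers 1 SD (n = 5). LTE2 replicate 3 stands at 4.73 for SeabassC-CL1722Contig1 and LTE2 replicate 2 at 5.31 for SeabassC-CL2350Contig1, while the group means of each member lie within 0.8 of each other.

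The clone cDN27P0006F04 differed from the rest in that 1 low fish in each group made its spread, and mostly at 1 probe. Its level was 0.48, 0.02, 0.50, -3.51 and -0.01 in HTE2 replicates 1 to 5, against 1.22, 1.38, 0.19, 1.14 and -3.27 in LTE2 replicates 1 to 5. The other 4 fish of a group lay within 0.51 log2 units in HTE2 and within 1.20 in LTE2. Of its further probes, the first read -1.11, -1.47, -1.14, -2.36 and -1.73 in HTE2 and -0.76, -0.99, -1.33, -1.22 and -1.27 in LTE2. The second read -1.04, -1.18, -0.71, -2.26 and -1.56 in HTE2 and -0.32, -0.27, -1.01, -0.65 and -1.47 in LTE2. LTE2 replicate 5 was thus not set apart at the further probes, whose SD in LTE2 was 0.237 and 0.502, against 1.96 at the chosen probe. HTE2 replicate 4 was the lowest HTE2 fish at both, but less far from the rest. The SD in HTE2 was 0.512 and 0.595 there, against 1.70 at the chosen probe.

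SeabassC-CL166Contig1 and cDN25P0005K02 shared a very low HTE2 replicate 4. SeabassC-CL166Contig1 read 0.67, 0.51, 1.52, -3.53 and 0.42 in HTE2 replicates 1 to 5, against -2.26, 0.92, 1.26, -1.51 and -1.47 in LTE2 replicates 1 to 5. The clone cDN25P0005K02 read 0.78, 2.67, 3.45, -3.85 and -0.13 in HTE2 replicates 1 to 5, while the LTE2 fish lay between -0.54 in replicate 5 and 2.19 in replicate 2, and it had the widest HTE2 range of all members, 157.9-fold. All further probes of both followed at r = 1.00. In LTE2 the lowest fish was replicate 1 for SeabassC-CL166Contig1 and replicate 5 for cDN25P0005K02.

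Further members of the main profile with wide spread were cDN25P0004H17, cDN30P0002I13 and SeabassC-CL1049Contig1, all with HTE2 replicate 4 as the lowest HTE2 fish, at -4.26, -5.07 and -4.39 log2 units, against -0.45, -0.79 and -0.80 in the highest HTE2 fish. In LTE2 the lowest fish was replicate 5 at -3.68 for cDN25P0004H17, replicate 3 at -3.19 for cDN30P0002I13 and replicate 4 at -3.40 for SeabassC-CL1049Contig1. SeabassC-CL2870Contig1, among those with the highest mean level, read 1.97, 1.16, 0.24, -1.52 and 0.55 in HTE2 replicates 1 to 5, against 4.34, 2.52, 0.12, -0.98 and -0.57 in LTE2 replicates 1 to 5. Replicate 1 was its highest and replicate 4 its lowest fish in both groups.

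By the median over its members, the second profile had replicate 5 at its top in both groups. The median over its 7 members was -2.99, -2.65, -2.45, -4.60 and -0.93 log2 units in HTE2 replicates 1 to 5, against -1.93, -2.23, -2.39, -3.51 and -1.44 in LTE2 replicates 1 to 5. SeabassC-CL2306Contig1 led it, with -0.54, 0.24, -1.18, -2.57 and 3.22 in HTE2 replicates 1 to 5 (SD 2.15), against 0.25, -0.77, 0.51, -1.11 and 2.45 in LTE2 replicates 1 to 5 (SD 1.39). It varied together with SeabassC-CL955Contig1 at r = 0.95, and the further probes correlated with the chosen ones at 0.99 each for SeabassC-CL2306Contig1 and 1.00 each for SeabassC-CL955Contig1. SeabassC-CL2095Contig1, with a low mean level, belonged to the same set, and its further probes were well above background on only 4 and 1 arrays. In LTE2 its highest fish was replicate 1 at -2.79, with replicate 5 at -3.34. Over the set, HTE2 replicate 5 lay above its group mean in 7 members and LTE2 replicate 5 in 6. LTE2 replicate 5 was the highest LTE2 fish for SeabassC-CL2306Contig1 and SeabassC-CL955Contig1, but for most of the set the highest was LTE2 replicate 1 or 2. The median therefore does not describe every member in LTE2.

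A few members did not follow the main profile. SeabassC-CL946Contig1 read -1.03, -0.57, 1.47, 1.46 and 1.07 in HTE2 replicates 1 to 5, against -0.51, 2.60, 1.51, -1.20 and 1.77 in LTE2 replicates 1 to 5. The clone cDN30P0004A14 stood highest in replicate 4 of both groups, with -3.86, -3.18, -2.94, -0.95 and -3.26 in HTE2 replicates 1 to 5, against -0.45, -3.75, -2.73, 0.02 and -3.94 in LTE2 replicates 1 to 5. The clone cDN29P0004K01, at the edge of the SD threshold, was lowest in replicate 2 of both groups, at -3.42 in HTE2 and -3.71 in LTE2. The fish of replicate 4 were thus not the lowest throughout.

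Membership depended on single fish. Without HTE2 replicate 4, 27 transcripts met the rule, 18 of them members, and without LTE2 replicate 5, 31 met it, 28 of them members. Leaving out any other single fish left between 37 and 54 transcripts, of which between 30 and 41 were members. Without HTE2 replicate 4 and LTE2 replicate 2, the ends of the main profile, 24 transcripts met the rule, of which 11 were members. The share of the first principal component stayed between 51.0% and 57.1% when any one fish was left out.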

How the data were processed

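Spot intensities were extracted with Agilent Feature Extraction 10.7.3.1, per the file headers, and the deposited processed intensities had their background subtracted but carry no normalization across arrays. The authors' deposited value table is on a log2 scale, with column medians of 8.01 to 8.05 over 21701 probes, and its normalization is not stated in any source used. RNA with an integrity number above 7 was labelled from 100 ng, per the labels' protocols.

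Log2 processed intensities were centred on the 75th percentile of the 43803 spots of an array that are no controls. Spots flagged as outliers (1057) were left out of probe means. Probes with 50% of spots well above background on at least 5 arrays (20115) were tested with limma 3.58.1 in R 4.3.3, group as the only term, and, beside group, with slide or log2 brightness. The functions were tested on simulated data. The members and lists were chosen with earlier results of these data known. Each replicate is 1 fish, and with 5 per group precision is limited. Same-numbered arrays share a slide and not an animal. The rule for named transcripts took the 12 members of largest smaller SD, those of highest and lowest mean, the ends of the first component, transcripts most like the leading members, and those beside the thresholds; cDN31P0003L05, cDN25P0006J19, SeabassC-CL955Contig1 and the transcripts like SeabassC-CL2350Contig1 were named after their values were seen. Numerical work used Python 3.11.15 and scipy 1.17.1. Alternatives were other scalings, normexp (offset 50, median spot and background signal, since the files used hold no mean spot signal), the authors' table, other filters and thresholds, slide blocks and leaving out fish or slides.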

Additional observations from a re-analysis of the deposited data

Results flagged for a closer look

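In each group of 5 values of a named member, a fish was picked out when its gap to the nearest other fish exceeded 0.71 of the group's range, which chance does for about 1 group in 20 of unselected normal values. Of 44 such groups 5 met this. It was met by 13 of the 102 groups of all members (12.7%), by 12.1% of the groups of the 95 transcripts of like spread and by 6.80% of those of all 6374 transcripts. The choice of wide spread favours groups with 1 distant fish, so no excess is read from these shares. HTE2 replicate 4 lay far below its group for SeabassC-CL166Contig1 at -3.53 (next fish 0.42), for cDN27P0002K17 at -6.10 (next fish -4.13) and for cDN27P0006F04 at -3.51 (next fish -0.01). At the further probes of cDN27P0006F04, HTE2 replicate 4 read -2.36 and -2.26, nearer to the next fish at -1.73 and -1.56. LTE2 replicate 5 lay far below its group for cDN27P0006F04 at -3.27 (next fish 0.19), at 1 of 3 probes as given above. LTE2 replicate 2 lay far above its group for SeabassC-CL2350Contig1 at 5.31 (next fish -1.99), and at all 3 probes. Members share profiles, so these are not separate events.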

How the results depend on the processing

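The count of transcripts that meet the rule, 51, moved to 309 under spike-in scaling (30 of them members), 14 under normexp (12 members), 14 in the authors' table (9 members), 139 with detection on at least 5 arrays, 212 without a detection filter, 33 with an SD minimum of 1.0, 33 with a difference under 0.6 and 105 with the residual SD after slide as a replicate block (25 members). It ran from 27 to 54 without 1 fish, and was 24 without slide 4, 31 without slide 5 and 24 without HTE2 replicate 4 and LTE2 replicate 2. Several of these alternatives (slides or pairs of fish left out, intensities without scaling, spike-in scaling of the tests, the authors' table for brightness, the ordinary F test) were chosen after seeing the data. The median SD of members fell to 0.605 in HTE2 in the authors' table and ran from 0.826 to 1.33 in HTE2 and from 1.13 to 1.29 in LTE2 without 1 fish. The first component held 43.2% in the authors' table and 51.0% to 57.1% without 1 fish. Calls between HTE2 and LTE2 over all probes, 5638, moved to 3199 with the slide as a replicate block, 1903 under normexp, 3333 under spike-in scaling and 2806 to 8809 without 1 fish, and the members called stayed at 0 in all 15 alternatives in which they were counted, with 8 at an unadjusted p under 0.05 in limma under normexp and 2 with the block. The rule kept the group means of the members close, so nothing is read from that 0. Under spike-in scaling 178 probes, 6 of them of members, were called for the slide and 1 for brightness. The causes of these moves were not tested, apart from thresholds and filters, which change the count by construction. The smaller SD moved by more than its approximate standard error for 8 of the 22 named members under normexp and for 15 of the 20 that the authors listed in their values. All members were well above background on all 10 arrays by choice, and dimmer transcripts could not enter.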
